A study of Mus musculus with 27 samples.

Results

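The circadian clock genes of the kidney were described over a series of warm ischemia times. The 10 genes were Arntl, Clock, Npas2, Per1, Per2, Per3, Cry1, Ciart, Nr1d1 and Dbp, out of 19392 genes listed by symbol. They were selected on their measured levels over the 9 ischemia times in these same kidneys, so their values, and the counts of them past the criteria used for all genes, are given as a description, with no p-value and no support drawn from them. RNA-Seq was done on the left kidneys of 27 C57BL/6 mice in the uIRIx model, in which the left renal vessels are clamped and the right kidney is removed. Ischemia lasted 0 min in the sham group and 16, 18, 20, 22, 24, 26, 28 or 30 min in the other groups, with 3 mice per group, and every left kidney was taken after 24 h of reperfusion. All groups shared the strain and the reperfusion time, and the age and sex of the mice were not given in the sources used here. The mice were kept under a light and dark cycle, but no clock time of surgery or of harvest was given for any mouse, so ischemia time and time of day cannot be told apart.

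The mammalian clock is a transcription loop that runs in nearly every cell, the tubular cells of the kidney included. ARNTL (BMAL1) pairs with CLOCK or NPAS2 and activates genes through E-box sequences, among them the Per and Cry genes, Nr1d1, Dbp and Ciart. The PER and CRY proteins and CIART then repress that activator, NR1D1 (REV-ERB alpha) represses Arntl through ROR elements, and DBP drives further genes through D-boxes. In kidney the clock is known for daily rhythms of filtration, salt transport and blood pressure, and Arntl and its targets peak at opposite times of the day.

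The promoters of the members were read to show which of these elements lie near the start sites. RefSeq promoters of GRCm38.p6 (250 bases before the start and 50 from it) were found for 9 of the 10 members, in 13 windows, and Per2 was not in the table. Motifs were searched on both strands as the E-box CACGTG, the E'-box CACGTT, the D-box TTATGTAA or TTACGTAA and the ROR element TAGGTCA or TGGGTCA. Ciart held 3 E-boxes, the first bases of which lay 116, 58 and 44 bases before the start. Per3 held 2 D-boxes, 205 and 158 bases before the start. Cry1 held 1 E-box and 1 E'-box, 60 and 79 bases before the start. One of the 2 Arntl start sites held a ROR element, the first base of which lay 30 bases after the start. These 4 windows are shown because each holds a different element of the loop, with the matches in capitals (the E'-box of Cry1 reads AACGTG on this strand).
Ciart, chr3:95882179-95882478, minus strand: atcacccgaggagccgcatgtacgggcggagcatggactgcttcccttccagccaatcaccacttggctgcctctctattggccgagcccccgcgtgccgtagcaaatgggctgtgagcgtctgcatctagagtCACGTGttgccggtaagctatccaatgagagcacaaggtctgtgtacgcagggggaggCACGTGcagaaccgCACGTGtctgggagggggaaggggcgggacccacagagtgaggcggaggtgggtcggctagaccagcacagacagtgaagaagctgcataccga
Per3, chr4:151044616-151044915, minus strand: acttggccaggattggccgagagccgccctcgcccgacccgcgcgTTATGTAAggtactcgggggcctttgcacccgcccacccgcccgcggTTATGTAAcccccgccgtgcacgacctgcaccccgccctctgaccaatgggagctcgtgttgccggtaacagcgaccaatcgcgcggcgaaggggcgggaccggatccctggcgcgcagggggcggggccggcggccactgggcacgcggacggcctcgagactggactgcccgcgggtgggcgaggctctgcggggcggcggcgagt
Cry1, chr10:85185005-85185304, minus strand: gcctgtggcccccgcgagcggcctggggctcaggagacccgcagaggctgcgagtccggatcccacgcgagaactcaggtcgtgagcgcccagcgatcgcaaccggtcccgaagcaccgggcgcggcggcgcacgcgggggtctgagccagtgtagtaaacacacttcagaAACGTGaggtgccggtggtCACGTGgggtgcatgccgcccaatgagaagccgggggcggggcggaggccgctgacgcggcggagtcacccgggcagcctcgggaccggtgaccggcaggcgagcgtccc
Arntl, chr7:113207261-113207560, plus strand: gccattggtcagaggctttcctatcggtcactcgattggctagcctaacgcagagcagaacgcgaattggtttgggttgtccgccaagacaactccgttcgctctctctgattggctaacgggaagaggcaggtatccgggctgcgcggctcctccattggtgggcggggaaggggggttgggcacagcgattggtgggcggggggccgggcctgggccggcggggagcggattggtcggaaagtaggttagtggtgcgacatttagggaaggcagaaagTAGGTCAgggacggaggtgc
Per1 also held 1 E-box, 166 bases before 1 of its 2 starts, and Nr1d1 held 1 E'-box, 28 bases before its start. The windows of Dbp, Npas2 and Clock held none of the 4 motifs. Of all 32851 promoters in the table, 7.15% held an E-box, 4.69% an E'-box, 1.06% a D-box and 6.45% a ROR element. A match is a description of these letters and not evidence of a bound site.

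Levels in FPKM (fragments per kilobase, scaled to all mapped fragments of the library) were used as deposited, and can be compared between genes because they are scaled to length. Fold differences are on the scale of log2(FPKM + 1) after quantile normalization in limma, which understates the difference of genes near 1 FPKM, such as Arntl and Npas2. No pair of kidneys held identical values. The read counts were not given, so the depth per kidney is unknown. Kidney 3 of the ischemia 16 min group stood apart in the members. For 7 of the 10 genes it lay outside the range of the other 17 kidneys of 16–26 min, with Arntl, Clock, Per2 and Cry1 above and Ciart, Nr1d1 and Dbp below. The next kidney in this count had 3 such genes. At 16 min the count of members past the criteria is given with and without kidney 3. The same holds for the fitted differences of Arntl, Nr1d1, Per2, Dbp, Ciart and Cry1. Kidney 1 of the 0 min group was the highest of its 3 for Arntl, Clock, Npas2 and Nr1d1 and the lowest for Per1, Per2, Per3, Ciart and Dbp.

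Marker genes moved with the ischemia groups. The 4 proximal tubule markers summed to 2368–2725 FPKM at 0 min, 1456–2831 FPKM at 16–26 min, 879–985 FPKM at 28 min and 536–621 FPKM at 30 min, with all 4 detected in every kidney. Slc34a1 made up most of this sum. Lrp2 and Cubn lay below their sham kidneys already at 16–26 min, at 81.7–136.5 against 155.6–169.3 FPKM and at 30.5–49.8 against 51.5–61.4 FPKM. Both were lower still at 28 and 30 min. Slc5a2 had a median of 129 FPKM in sham kidneys, 167 FPKM at 16–26 min and 127 FPKM in the 28 min group. The injury markers Havcr1 and Lcn2 summed to 11.9–85.6 FPKM at 0 min, 66.5–1191 FPKM at 16–26 min and 2391–4753 FPKM at 30 min. The 2 fibroblast markers summed to 8.30–11.7 FPKM at 0 min, 26.9–80.7 FPKM at 16–26 min and 20.6–56.6 FPKM at 30 min. The 5 leukocyte markers summed to 4.83–6.02 FPKM in sham kidneys, 3.71–8.79 FPKM at 16–26 min, 7.04–10.5 FPKM at 28 min and 9.12–15.1 FPKM at 30 min. Only Itgam (0.27–0.37 and 1.56–5.07 FPKM) and S100a8 (0.55–3.37 and 5.19–12.1 FPKM) were higher at 30 min than in sham. Ptprc was at 1.24–1.80 FPKM in sham and 0.84–1.56 FPKM at 30 min, and Adgre1 at 0.79–1.53 and 0.53–1.55 FPKM. Cd3e was at 0 in some kidneys. The 3 endothelial markers summed to 50.6–62.2 FPKM in sham kidneys and 69.0–108 FPKM at 30 min, and the 2 podocyte markers to 12.5–21.9 and 22.4–37.4 FPKM. In bulk kidney, fewer cells of a type and less RNA per cell cannot be told apart, and the part of these markers in the results on the clock genes was not tested.

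**Figure D1:**
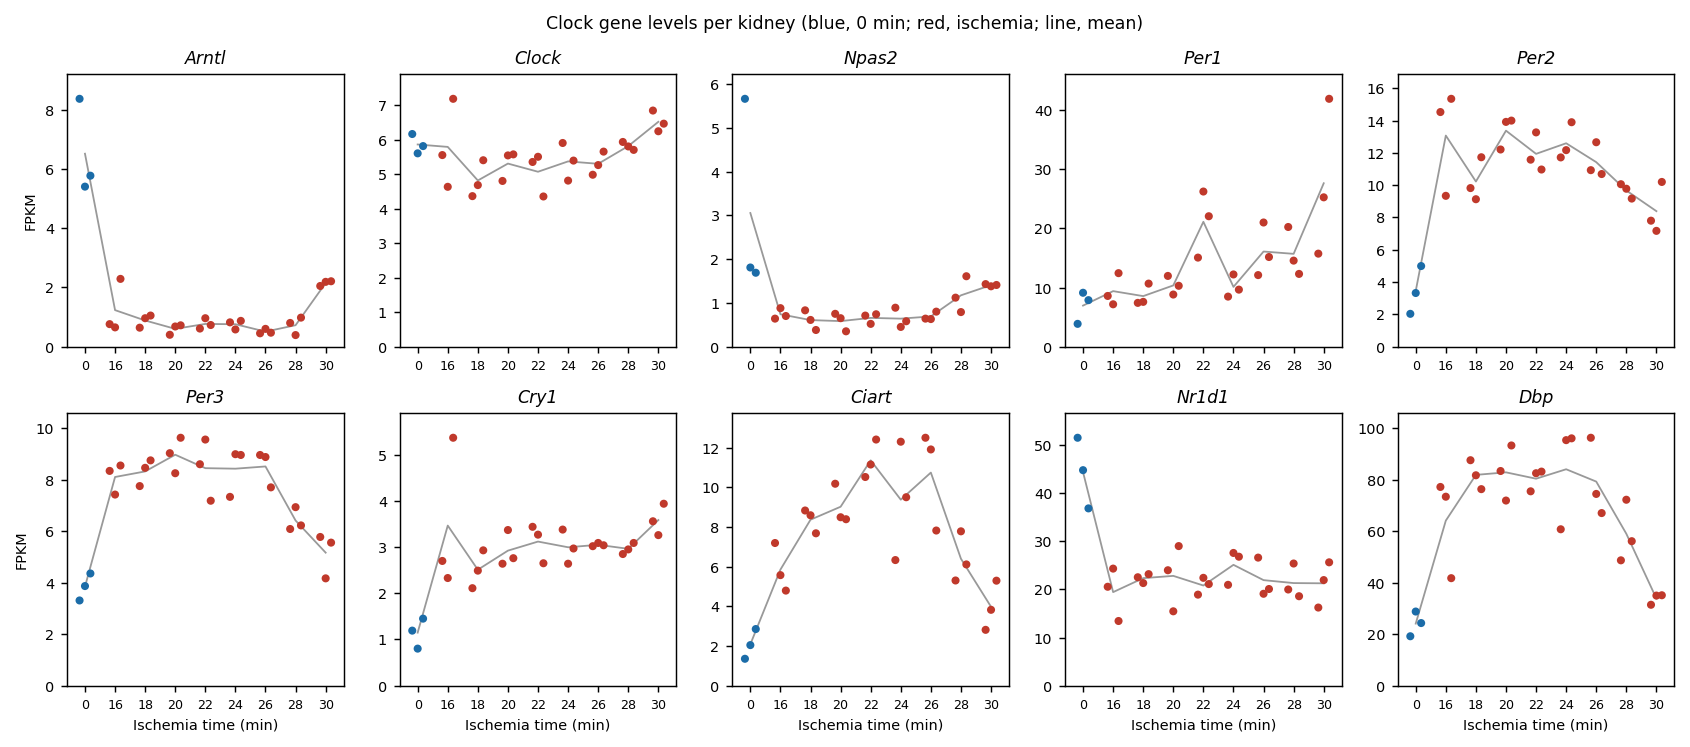
FPKM of the 10 clock genes in each of the 27 kidneys against ischemia time in minutes (evenly spaced groups, 3 kidneys each; each panel has its own axis from 0). Blue points are the 0 min kidneys, red points the ischemic kidneys and the grey line joins the group means; Arntl and Nr1d1 sit below their 0 min kidneys at every ischemia time, and Per2, Cry1 and Dbp sit above theirs.

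The activator side of the loop was low after ischemia in 2 of its 3 genes. Arntl (ENSMUSG00000055116.8, chr7:113207465-113314126, plus strand, GRCm38), which encodes the indispensable subunit of the activator, stood at 8.38, 5.41 and 5.78 FPKM in the 3 sham kidneys. In the 18 kidneys of 16–26 min it ranged from 0.40 to 2.29 FPKM with a median of 0.70 FPKM. At 28 min the values were 0.80, 0.39 and 0.98 FPKM. At 30 min they were 2.05, 2.19 and 2.21 FPKM. None of the 24 ischemic kidneys reached the lowest sham kidney, and the 30 min kidneys lay above every kidney of 18–28 min and below kidney 3 of 16 min. The mean of 16–26 min was 8.24-fold lower than that of 0 min, and the mean of 30 min was 3.03-fold lower. In order of the group means Arntl was highest at 0 min and then at 30 min, and from 30 min down each group overlapped the next, 30 and 16 min through kidney 3 of 16 min alone.

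Clock (chr5:76209868-76304792, minus strand), the partner of ARNTL, differed little. It stood at 6.16, 5.6 and 5.81 FPKM at 0 min, at 4.35–7.18 FPKM with a median of 5.37 FPKM at 16–26 min, and at 5.93, 5.80 and 5.70 FPKM at 28 min. At 30 min its values of 6.84, 6.24 and 6.46 FPKM all lay above the sham kidneys, but the fitted difference was 0.01 ± 0.11 (SE) on the log2 scale. Without quantile normalization that difference was 0.13. The ratio of Clock to Arntl FPKM within a kidney was 0.735–1.04 in the sham group, was 3.14–12 after 16–26 min of ischemia, and stood at 2.85–3.34 after 30 min.

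Npas2 (chr1:39193731-39363236, plus strand), a paralog of Clock that can take its place, stood at 5.67, 1.81 and 1.69 FPKM at 0 min, so kidney 1 was far above the other two. At 16–26 min it ranged from 0.35 to 0.89 FPKM with a median of 0.65 FPKM. The values were 1.12, 0.79 and 1.61 FPKM at 28 min and 1.43, 1.38 and 1.41 FPKM at 30 min. Every ischemic kidney lay below every sham kidney, and the 30 min kidneys lay within the range of the 28 min kidneys and above all 18 kidneys of 16–26 min. The fitted differences from 0 min, -1.23 ± 0.23 (SE) at 16 min and -0.73 ± 0.23 at 30 min, rested in part on sham kidney 1. Without it they lay between -0.98 and -0.32 over the 8 ischemia times.

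Nr1d1 (chr11:98767932-98775333, minus strand), the nuclear receptor that represses Arntl, was also low after ischemia. It stood at 51.6, 44.9 and 36.9 FPKM in the sham kidneys. At 16–26 min it ranged from 13.4 to 29.0 FPKM with a median of 21.9 FPKM. It was at 20.0, 25.4 and 18.6 FPKM at 28 min and at 16.2, 22.0 and 25.7 FPKM at 30 min. The ischemic groups overlapped each other throughout and none overlapped the sham group. Group means differed from that of 0 min by about the same amount at short and long ischemia, 2.01-fold lower at 16–26 min and 2.09-fold lower at 30 min. As background, Nr1d1 and Dbp are both direct targets of the activator, and here they lay on opposite sides of the sham level. The Nr1d1 to Dbp ratio within a kidney was 1.52–2.69 in the sham group and 0.215–0.345 after 16–26 min of ischemia. It was 0.331–0.411 in the 28 min group and 0.517–0.731 in the 30 min group.

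Dbp (chr7:45705088-45710203, plus strand), a D-box activator and a direct readout of the ARNTL complex, had the highest mean of the 10 genes over all 27 kidneys, although Nr1d1 exceeded it in every sham kidney. It stood at 19.2, 28.8 and 24.3 FPKM at 0 min. At 16–26 min it ranged from 41.7 to 96.3 FPKM with a median of 79.5 FPKM, the lowest value being kidney 3 of 16 min. The values were 48.7, 72.2 and 56.1 FPKM at 28 min and 31.4, 35.0 and 35.1 FPKM at 30 min. The 28 min kidneys overlapped those of 26 min, whereas all 30 min kidneys lay below all 28 min kidneys and above all sham kidneys. The mean of 30 min was 1.75-fold lower than that of 28 min and 1.41-fold higher than that of 0 min.

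Ciart (chr3:95878503-95882251, minus strand), a repressor of the ARNTL complex whose promoter holds the 3 E-boxes shown above, followed a similar course. It stood at 1.35, 2.04 and 2.85 FPKM at 0 min and at 4.79–12.5 FPKM with a median of 8.71 FPKM at 16–26 min. The values were 5.30, 7.78 and 6.11 FPKM at 28 min and 2.81, 3.82 and 5.29 FPKM at 30 min. Every kidney of 16–28 min lay above every sham kidney, while 1 of the 3 kidneys of 30 min fell within the sham range. The mean was 4.38-fold higher than sham at 16–26 min and 1.91-fold higher at 30 min. Within 16–26 min the group means ran from 5.85 ± 1.22 FPKM (SD, n = 3) at 16 min to 11.4 ± 0.96 FPKM at 22 min.

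The Per and Cry genes encode the repressor complex of the loop, and they differed in their course. Per2 (chr1:91415982-91459324, minus strand) stood at 2.03, 3.32 and 4.99 FPKM at 0 min and at 9.13–15.4 FPKM with a median of 11.95 FPKM at 16–26 min. It was at 10.1, 9.78 and 9.17 FPKM at 28 min and at 7.80, 7.17 and 10.2 FPKM at 30 min. All 24 ischemic kidneys exceeded the sham kidneys, the 28 min kidneys lay below those of 26 min, and the 28 and 30 min groups overlapped.

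Per3 (chr4:151003652-151044665, minus strand), which carries the 2 D-boxes shown above, stood at 3.31, 3.87 and 4.36 FPKM at 0 min. At 16–26 min it ranged from 7.19 to 9.64 FPKM with a median of 8.59 FPKM. It was at 6.09, 6.94 and 6.23 FPKM at 28 min and at 5.78, 4.17 and 5.56 FPKM at 30 min. The groups stood in the order 16–26, 28, 30 and 0 min, and of the neighbours in that order only 30 and 0 min overlapped.

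Cry1 (chr10:85131700-85185064, minus strand) stood at 1.19, 0.80 and 1.45 FPKM at 0 min and at 2.11–5.37 FPKM with a median of 2.95 FPKM at 16–26 min. The values were 2.85, 2.95 and 3.09 FPKM at 28 min and 3.56, 3.26 and 3.94 FPKM at 30 min. All 24 ischemic kidneys exceeded the sham kidneys, and unlike those of Per2 and Per3 the 30 min values of Cry1 lay above its 28 min values. The highest Cry1 value was that of kidney 3 of 16 min, and without that kidney the fitted difference of 16 min from sham went from 0.86 to 0.55.

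Per1 (chr11:69095217-69109960, plus strand), the Per gene that also responds quickly to glucocorticoid and cAMP signals, varied most between kidneys of the Per genes, with a median coefficient of variation within groups of 26.8% against 9.98% for Per2 and 8.28% for Per3. It stood at 3.85, 9.11 and 7.86 FPKM at 0 min. At 22 min it was at 15.1, 26.2 and 22.1 FPKM, and at 24 min at 8.46, 12.2 and 9.64 FPKM. At 30 min it was at 15.7, 25.3 and 41.9 FPKM. The kidneys of 22, 26, 28 and 30 min lay above the sham kidneys, whereas those of 16, 18, 20 and 24 min overlapped them. Kidney 3 of 30 min was the highest of all 27.

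**Figure D2:**
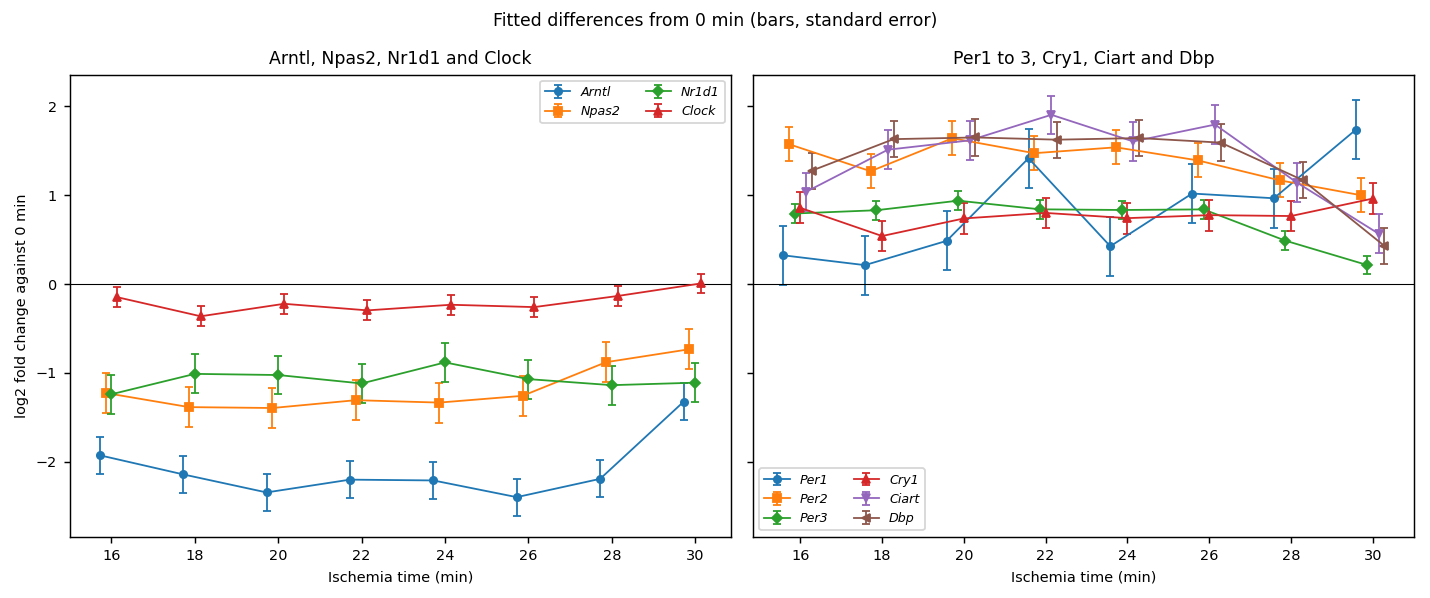
Fitted log2 difference of each clock gene from 0 min against ischemia time in minutes, on the scale of log2(FPKM + 1) after quantile normalization, with 3 kidneys per group. Points are the limma estimates and bars their standard errors; Arntl lies between -2.40 and -1.32, and Dbp, Ciart and Per3 are closest to 0 at 30 min while Per1 is farthest from 0 there.

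Set against 0 min, some members met the criteria of a differentially expressed gene (DEG) at every ischemia time. These were a log2 fold change beyond 1 in either direction together with an adjusted p-value under 0.05 in limma. At 16 min 6 of the 10 members passed, where 2.25% of all 18188 tested genes did. There were 6 members in the 18 min group (3.06% of all genes), 6 in the 20 min group (2.51%) and 7 in the 22 min group (3.29%). The 24 min group had 5 (3.12%) and the 26 min group 7 (3.77%). At 28 min 5 members passed (8.48% of all genes), and at 30 min 3 passed (10.7%). Because the members were selected on these values, nothing is read from these counts. Without kidney 3 of 16 min 6 members passed at 16 min, and in a fit of the 16 and 0 min kidneys alone 0 did. Without sham kidney 1 the count was lower at every ischemia time, at 4 for 16, 18, 20, 24 and 26 min, 6 for 22 min, 3 for 28 min and 2 for 30 min.

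By size, the fitted differences of 16 from 0 min were -1.93 ± 0.21 (SE) for Arntl, -1.24 ± 0.22 for Nr1d1, 1.57 ± 0.19 for Per2, 1.27 ± 0.20 for Dbp and 1.04 ± 0.22 for Ciart. Without kidney 3 of 16 min they were -2.27, -1.03, 1.43, 1.54 and 1.13. At 30 min the differences were -1.32 ± 0.21 for Arntl, -1.11 ± 0.22 for Nr1d1, 0.998 ± 0.19 for Per2, 0.43 ± 0.20 for Dbp and 0.57 ± 0.22 for Ciart. Per1 differed by 1.73 ± 0.33 at 30 min. Per3 differed by 0.79 ± 0.11 at 16 min and 0.21 ± 0.11 at 30 min. Without sham kidney 1 the differences at 30 min were smaller, at 1.42 for Per1, 0.75 for Per2, 0.13 for Per3, 0.38 for Ciart, 0.29 for Dbp, -1.16 for Arntl and -0.99 for Nr1d1. The median absolute difference over the 10 members was 1.13 at 16 min and 0.85 at 30 min, where that over all tested genes was 0.12 and 0.25. The members were selected on these same levels, so nothing is read from this contrast either.

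The 24 ischemic kidneys lay wholly beyond the 3 sham kidneys for 6 of the 10 members. Arntl, Npas2 and Nr1d1 lay below, and Per2, Cry1 and Dbp lay above. Of all tested genes 13.6% did so in either direction. Ciart, Per3, Per1 and Clock overlapped the sham kidneys in at least 1 ischemic kidney, which for Ciart and Per3 was a 30 min kidney.

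Between neighbouring long ischemia times no member passed the DEG criteria. For 28 against 26 min 1.5% of all genes passed, and the largest member differences were -0.65 ± 0.22 for Ciart and -0.42 ± 0.20 for Dbp. For 30 against 28 min 1.05% of all genes passed, and the largest member differences were 0.87 ± 0.21 for Arntl, 0.77 ± 0.33 for Per1, -0.74 ± 0.20 for Dbp and -0.58 ± 0.22 for Ciart. Arntl was thus higher and Dbp and Ciart lower at 30 than at 28 min. The 3 kidneys of each group did not overlap for Arntl and Dbp, and for Ciart they all but met, at 5.29 against 5.30 FPKM. The share of all genes without overlap in this contrast was not counted, so nothing is read from the separation.

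The ratio of Dbp to Arntl within a kidney, which needs no scaling between kidneys, set the output of the loop against its activator. It was 2.29–5.32 at 0 min. At 16–26 min it ranged from 18.2 to 214 with a median of 113, the lowest being kidney 3 of 16 min and the next lowest 72.7. The 28 min group had 57.3–185 and the 30 min group 15.3–16.0. The 30 min kidneys were the closest group to sham in this ratio, lay within a narrow range, and did not overlap it. The Per2 to Arntl ratio ran the same way, from 0.242–0.863 in sham kidneys to 6.70–30.5 after 16–26 min and 3.27–4.62 after 30 min of ischemia.

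**Figure D3:**
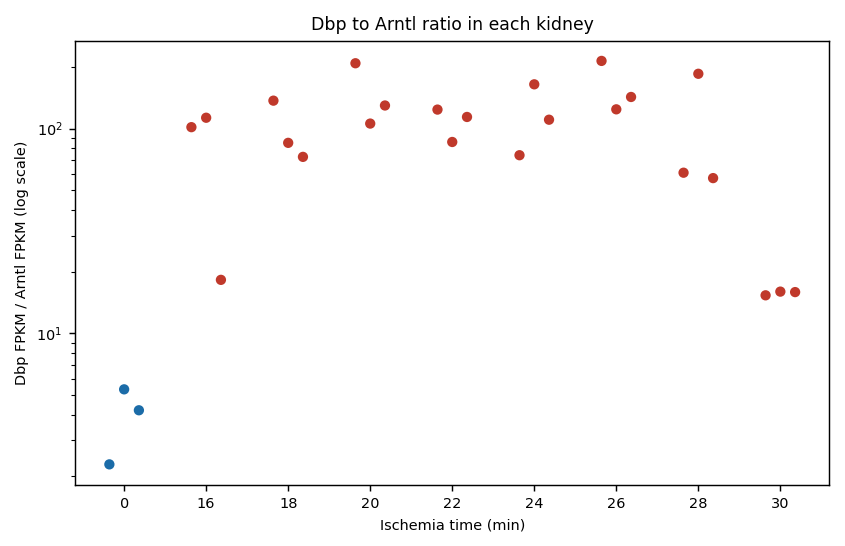
Ratio of Dbp FPKM to Arntl FPKM in each kidney (log scale) against ischemia time in minutes (evenly spaced groups), with blue points for 0 min and red points for ischemia. The sham kidneys lie at 2.29–5.32, the 30 min kidneys at 15.3–16.0, and the low point at 16 min is kidney 3 of that group.

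The other genes of the clock were taken from a list of 11 regulators, chosen as paralogs and partners of the members. Of these 11, 1 was a DEG against the 0 min group at each time from 16 to 28 min, and 2 were at 30 min, where 2.25% to 8.48% and 10.7% of all genes were. Bhlhe40 (DEC1), which competes with the activator for E-boxes, rose from 23.5, 23.6 and 32.8 FPKM at 0 min to 42.6–92.8 FPKM at 16–26 min and to 80.9, 77.0 and 88.2 FPKM at 30 min. Its log2 difference was 1.05 ± 0.21 (SE) at 16 min (limma, adjusted p = 0.00165) and 1.58 ± 0.21 at 30 min (limma, adjusted p = 2.25e-06). All 24 ischemic kidneys lay above the sham kidneys for this gene. At 18 min Bhlhe40 missed the fold criterion, at 0.915, and the DEG of that time was Nfil3. The Bhlhe40 call at 16 min was lost without any one of 16 min kidney 2 (0.90), sham kidney 1 (0.97) or sham kidney 2 (0.98). It was also lost in a fit of the 16 and 0 min kidneys alone. Its call at 20 min was lost without 20 min kidney 3 (0.912).

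Hlf and Tef are D-box activators of the same family as Dbp, and Nfil3 is the repressor at those sites. Hlf stood at 21.3, 24.6 and 22.4 FPKM at 0 min, 17.7–33.0 FPKM at 16–26 min, 14.6, 16.8 and 14.9 FPKM at 28 min and 8.31, 8.23 and 7.0 FPKM at 30 min. It fell by 1.52 on the log2 scale at 30 against 0 min (SE 0.16, limma, adjusted p = 1.66e-07), so it lay below sham where Dbp lay above. Tef had means of 61.0 ± 5.26 FPKM (SD, n = 3) at 0 min and 37.9 ± 1.73 FPKM at 30 min, a log2 difference of -0.71 (SE 0.10, limma, adjusted p = 9.35e-06) that missed the fold criterion. Nfil3 was 2.51 ± 0.73 FPKM (SD, n = 18) at 16–26 min against 4.30 ± 1.37 FPKM (SD, n = 3) in sham, and was a DEG at 18 min alone, where it fell by 1.002 (limma, adjusted p = 0.00404), a call that was lost in 6 of the alternative settings.

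Nr1d2, the paralog of Nr1d1, was at 21.3 ± 2.66 FPKM (SD, n = 3) at 0 min and 26.3 ± 1.66 FPKM (SD, n = 18) at 16–26 min, so unlike Nr1d1 it was not lower after ischemia. Cry2, the paralog of Cry1, was at 4.93 ± 0.22 FPKM at 0 min and 8.43 ± 1.92 FPKM at 30 min (SD, n = 3 each), a log2 difference of 0.52 (SE 0.11, limma, adjusted p = 0.00061). Rora, Arntl2, Bhlhe41 and Rorb were no DEGs in any comparison, and the last 3 were at or below 1.83 FPKM in every kidney.

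**Figure D4:**
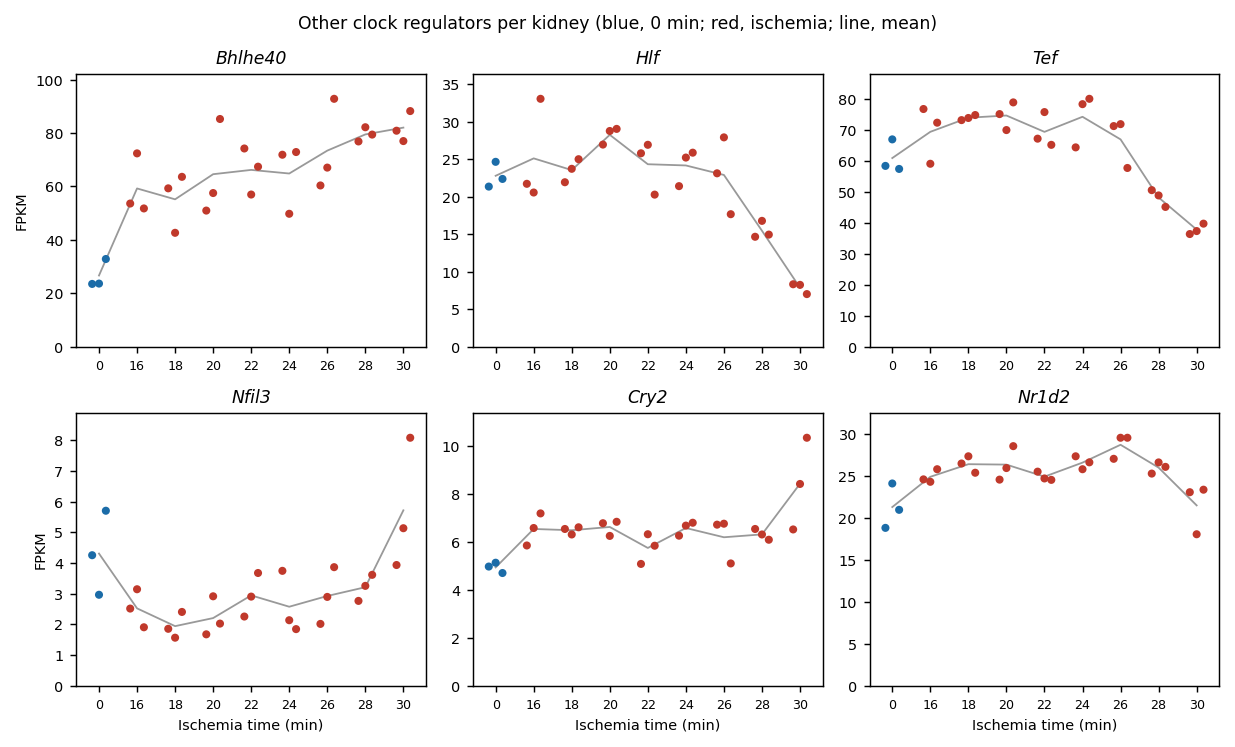
FPKM of 6 further clock regulators in each kidney against ischemia time in minutes (evenly spaced groups, 3 kidneys each, axes from 0), blue for 0 min, red for ischemia, with a line through the group means. Bhlhe40 stays above its sham kidneys, while Hlf and Tef stand lowest at 30 min, at means of 7.85 and 37.9 FPKM.

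Among 11 kinases, ubiquitin ligases and other partners of the clock proteins, 1 was a DEG at 28 min and 1 at 30 min against the 0 min group, a share close to the 8.48% and 10.7% of all genes. Csnk1e, which phosphorylates PER proteins, rose from 6.5, 5.29 and 5.88 FPKM at 0 min to 16.0, 18.9 and 23.8 FPKM at 30 min (log2 difference 1.44, SE 0.12, limma, adjusted p = 8.5e-09). Timeless rose by 1.13 at 28 min (SE 0.18, limma, adjusted p = 3.93e-05). Among 9 clock-controlled output genes, Wee1, a cell cycle kinase known as a target of the ARNTL complex, was a DEG at every time from 18 to 30 min and at 16 min had a log2 difference of 0.999 that fell just short of the fold criterion. It stood at 3.54, 4.14 and 5.94 FPKM at 0 min and at 8.90–15.6 FPKM in the 24 ischemic kidneys, with no overlap, on the same side of sham as Dbp, Per2 and Cry1. Its calls at 20 and 30 min were lost without sham kidney 1 (0.96 and 0.92).

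The other output genes that passed did so from 26 min on. The collecting duct genes Scnn1a, a subunit of the epithelial sodium channel, and Avpr2, the vasopressin receptor, fell at 28 min, with log2 differences of -1.20 and -1.495 (limma, adjusted p = 0.00131 and 0.0013), and Avpr2 fell also at 30 min by 1.39 (limma, adjusted p = 0.00208). Edn1, which encodes endothelin, rose by 1.68 at 30 min (limma, adjusted p = 3.56e-06). Sgk1, a kinase induced by aldosterone and glucocorticoid, rose by 1.07 at 26 min (limma, adjusted p = 0.038) and by 1.49 at 30 min (limma, adjusted p = 0.00253), and the call at 26 min was lost in 5 alternative settings. The remaining 4 output genes passed in no comparison. The 2 collecting duct markers summed to 196–315 FPKM at 0 min and 149–190 FPKM at 28 min. At 30 min they summed to 179–483 FPKM with a median of 183 FPKM, so that group overlapped sham. Their part in the result was not tested.

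Glucocorticoid and temperature are known to reset clocks outside the brain, so genes that respond to them were listed beside Per1. Of 4 glucocorticoid targets 3 were DEGs at 30 against 0 min and again at 30 against 28 min, where 10.7% and 1.05% of all genes were. Fkbp5 was at 17.3, 19.9 and 18.3 FPKM at 0 min and at 31.9, 46.1 and 94.4 FPKM at 30 min. Zbtb16 was at 0.72, 0.61 and 0.77 FPKM at 0 min and at 3.29, 5.79 and 13.4 FPKM at 30 min. Dusp1 was at 17.9, 15.6 and 22.7 FPKM at 0 min and at 42.2, 51.3 and 73.4 FPKM at 30 min. Kidney 3 of 30 min was the highest in all 3 and in Per1. Without that kidney the call of 30 against 28 min was lost for each of the 3 genes, at 0.71 for Fkbp5, 0.97 for Zbtb16 and 1.06 for Dusp1, and that of Fkbp5 for 30 against 0 min was lost too (0.95). Kidney 1 of 28 min lay within the range of the 30 min kidneys for Fkbp5 (42.8 FPKM) and Zbtb16 (6.63 FPKM). At 22 and 26 min the Per1 means were 3.04 and 2.32 times sham. Fkbp5 was at 0.98 and 0.90 times sham there, Zbtb16 at 0.90 and 1.41 times and Dusp1 at 2.19 and 2.08 times. A link of these genes to Per1 was not tested.

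Of 3 temperature-responsive genes, the cold-induced Rbm3 rose by 2.01 at 28 min and by 2.46 at 30 min against 0 min (SE 0.19, limma, adjusted p = 7.46e-08 and 2.64e-09). It stood at 47.3, 49.3 and 83.7 FPKM in sham, 227, 231 and 258 FPKM at 28 min and 304, 365 and 311 FPKM at 30 min. The heat shock gene Hspa1b rose by 1.98 at 30 min (limma, adjusted p = 1.56e-05), from 12.8, 8.67 and 20.0 FPKM to 58.0, 59.1 and 54.4 FPKM. The third gene, Cirbp, passed in no comparison. Of the 38 further genes, 4 (Bhlhe40, Csnk1d, Csnk1e and Wee1) separated all ischemic from all sham kidneys, a share no higher than the 13.6% of all genes.

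**Figure D5:**
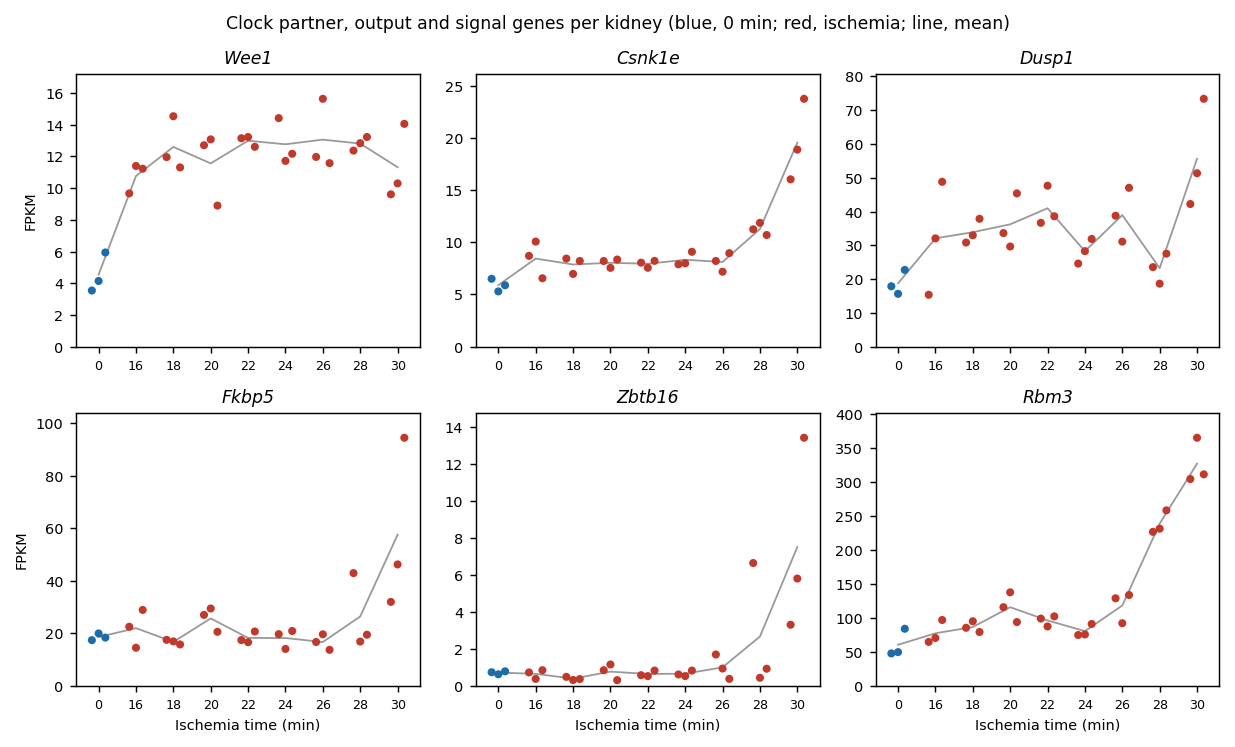
FPKM of 6 genes that modify, report or signal to the clock in each kidney against ischemia time in minutes (evenly spaced groups, 3 kidneys each, axes from 0), blue for 0 min, red for ischemia, with a line through the group means. Wee1 is above its sham kidneys from 16 min, at 8.90–15.6 FPKM, whereas Csnk1e, Fkbp5, Zbtb16 and Rbm3 have their highest means at 30 min.

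The genes whose levels followed Arntl and Dbp most closely were found among 12336 other genes by Pearson correlation over the 27 kidneys. These kidneys share the 9 ischemia groups, so the correlation is a description of the shared pattern. The genes most like Arntl were Jade1 (r = 0.904), Ppm1h (0.898), H2-K1 (0.892), Acsl1 (0.892) and Pramef8 (0.887). Over the 24 ischemic kidneys alone, r with Arntl was 0.773 for Acsl1, which encodes a fatty acyl-CoA synthetase, 0.712 for Jade1 and 0.464 for H2-K1, an MHC class I gene. Taken as deviations from the group means, r with Arntl was 0.651 for Acsl1, 0.646 for Jade1 and -0.421 for H2-K1, so the likeness of H2-K1 lay between the groups and not within them. Acsl1 had means of 95.1 FPKM at 0 min, 45.2 FPKM at 16–26 min, 42.2 FPKM at 28 min and 61.9 FPKM at 30 min. Genes most like Dbp were Dpysl3 (r = 0.924), Rnf26 (0.907), Col16a1 (0.895) and Col3a1 (0.889). Within the groups r with Dbp was 0.455, 0.518, 0.207 and 0.218 in the same order. Kidney 3 of 16 min, which stood apart for both Arntl and Dbp, was part of all these correlations. None was computed without it, so its share in them was not tested. Col3a1, a fibrillar collagen gene, had means of 4.78 FPKM at 0 min, 51.5 FPKM at 16–26 min, 29.7 FPKM at 28 min and 19.1 FPKM at 30 min.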

How the data were processed

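RNA from the left kidneys of 27 mice was sequenced on the DNBSEQ platform. The authors deposited 1 FPKM value per gene symbol and kidney, for 19392 genes, and the paper calls the unit RPKM. Per the submitters' processing notes the tools included Bowtie2, RSEM and DESeq2 and the build GRCm38.p6, with no versions given. The deposited FPKM are linear, without the quantile normalization that the methods describe. Read counts were not given, so precision rests on the 3 mice per group, and no per-kidney column was left unused.

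Groups followed the labelled ischemia times. The values were taken as log2(FPKM + 1), quantile normalized and fitted in limma 3.58.1 (R 4.3.3) with 1 mean for each time, using 18188 genes detected above 0 FPKM in at least 3 kidneys. Benjamini-Hochberg adjustment ran over all of these. A DEG needed an adjusted p-value under 0.05 and a log2 fold change beyond 1 in either direction. The steps were tested on simulated data. Named genes were the 10 members, all 11 further regulators, the partner, output, glucocorticoid and temperature genes called in at least 1 comparison, and the 5 genes most like Arntl and Dbp. A few named by this rule are not reported here. The members and lists were chosen with earlier results of these data known. Coordinates are from GENCODE M21 and promoters from RefSeq. Figures were drawn with matplotlib 3.10.9 (Python 3.11.15).

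The alternatives changed the pseudocount (0.1 FPKM), the scaling (none, or TPM in place of quantiles), the filter (1 FPKM in at least 3 kidneys, or none), the kidneys fitted (2 groups alone, or each replicate left out in turn) and the model (a mean-variance trend, or a replicate block). Replicate numbers are not stated to mark a shared litter or day. Serum and tissue measurements were not analysed here.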

Additional observations from a re-analysis of the deposited data

Results flagged for a closer look

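The step between neighbouring long ischemia times differed for 5 genes that were listed for signals to the clock, each by its limma contrast between the groups. For 28 against 26 min, Rbm3 was higher by 1.08 on the log2 scale (SE 0.19, limma, adjusted p = 0.000687), in 3 of 3 kidneys of 28 min above all kidneys of 26 min. Its call was lost with FPKM rescaled to a constant sum (0.99) and without 26 min kidney 2 (0.91). For 30 against 28 min, Fkbp5 was higher by 1.17 (SE 0.35, adjusted p = 0.0293) and Zbtb16 by 1.43 (SE 0.44, adjusted p = 0.0367) in limma, with overlap between the groups for both. Dusp1 was higher by 1.30 (SE 0.29, adjusted p = 0.00726) and Hspa1b by 1.09 (SE 0.31, adjusted p = 0.0229) in limma, with no overlap in 3 against 3 kidneys. The last 4 calls were lost in a fit of the 2 groups alone and without 30 min kidney 3, when Hspa1b still differed by 1.11. With these included, the call was lost in 6 alternative settings for Zbtb16, 5 for Hspa1b, 4 for Fkbp5 and 2 for Dusp1. Per1, a member, differed by 0.77 in the same contrast.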

How the results depend on the processing

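Other clock genes are here the 38 further listed genes, with 4 glucocorticoid and 3 temperature genes among them. A pseudocount of 0.1 FPKM raised the number of DEGs against 0 min to 795, 1077, 926, 1154, 1109, 1318, 2626 and 3276 at 16 to 30 min. It raised the number to 515 between 26 and 28 min and to 425 between 28 and 30 min. With it 8 members passed the criteria at 28 min, 5 at 30 min and 1 for 30 against 28 min, and 2 other clock genes at 16 min. Without quantile normalization 5 members passed at 30 min, and 2, 4 and 5 other clock genes at 16, 22 and 26 min. With TPM 5 members passed at 30 min and 1 for 30 against 28 min, and other clock genes numbered 2, 4 and 6 at 16, 22 and 26 min and 0 for 28 against 26 min. A fit of only the 2 groups gave 8 DEGs, 0 members and 0 other clock genes for 16 against 0 min, and 0 DEGs and 0 other clock genes for 30 against 28 min, with fewer kidneys to estimate the spread. Leaving out each replicate in turn gave 287–622 DEGs for 16 against 0 min (622 without 16 min kidney 3) and 83–339 for 30 against 28 min (83, 126 and 339 without 30 min kidney 3, 28 min kidney 2 and 30 min kidney 1). Members past the criteria ranged over 4–7 at 26 min and 3–7 at 28 min, lowest without sham kidney 1, over 2–5 at 30 min, highest without sham kidney 3, and over 0–1 for 30 against 28 min. Other clock genes ranged over 0–3 at 16 min, 1–2 at 18 min, 1–3 at 20 min, 2–5 at 22 and 26 min, 0–1 between 26 and 28 min and 0–8 between 28 and 30 min. Between these long ischemia times the calls of the main fit were all of glucocorticoid and temperature genes. The replicate block gave 410 DEGs at 16 min and 192 for 30 against 28 min and moved no count by over 1.5 times. Deviations of same-numbered kidneys correlated between -0.302 and 0.27, and 10 of 27 kidneys correlated best with their own number, so the numbers were not taken to pair the mice. Of the members' differences, 1352 of 1400 moved by less than the larger SD of the 2 groups compared. The trend, the replicate block and the fit of 2 groups cannot change a fold difference, so their share of the 1352 was fixed in advance. That SD also includes kidneys that stood apart. Npas2 at 16 min went from -1.23 to -0.81 without sham kidney 1 and was still counted. The number is thus no measure of robustness. Of the calls of other clock genes, 449 of 490 held. The cause of these shifts was not tested, and the unknown depth limits the genes near 1 FPKM.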
